A study of Mus musculus with 32 samples.

Results

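The genes of glycolysis, of pyruvate handling and of the tricarboxylic acid (TCA) cycle were followed in mouse striatum, as 40 named genes chosen for their place in central carbon metabolism. They fall into 18 genes of glucose uptake and glycolysis, 8 genes of pyruvate transport and the pyruvate dehydrogenase step, and 14 genes of the TCA cycle, out of 55415 features in the deposited tables. All 40 were found, and 39 passed the filter on low counts, among 10679 genes tested. Hexokinase 2 (Hk2) did not pass, with 148 counts over 32 libraries.

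The study asked what an antisense oligonucleotide does in a mouse model of Huntington disease. YAC128 mice carry the whole human huntingtin gene with a lengthened CAG tract, brought in on a yeast artificial chromosome with its own promoter. Separate YAC128 groups were given AON12.1, a scrambled control oligonucleotide, or aCSF (artificial cerebrospinal fluid), and wild-type (WT) littermates received aCSF, with 8 libraries in each of the 4 groups. Every group was on a B6 background, was cannulated in the lateral ventricle under isoflurane and injected 3 times from about 6 months of age, with 500 µg in each oligonucleotide dose. All animals were scanned by MRI at 12 months and killed by CO2 inhalation directly afterwards, a step that controls and treated animals share. Each library comes from an animal with its own number, and differences among mice are part of the spread within a group.

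Glycolysis splits glucose into pyruvate in the cytosol with a small yield of ATP and NADH. Lactate dehydrogenase converts pyruvate and lactate into each other, and in brain lactate released by astrocytes is held to feed neurons. Pyruvate that enters mitochondria is oxidised to acetyl-CoA by the pyruvate dehydrogenase complex, which pyruvate dehydrogenase kinases switch off. The TCA cycle then oxidises acetyl-CoA and supplies NADH and succinate to the respiratory chain. Reduced glucose use in the striatum is a long-known feature of Huntington disease in patients.

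The libraries were 3'-end counts from oligo-dT-primed cDNA. Total gene counts ran from 658934 to 1419313 per library, and levels below are TMM-normalised CPM, a count scaled to library size, which are compared between libraries and not between genes. The share of a library's counts outside any annotated feature averaged 23.8% ± 6.70 with AON12.1, 22.1% ± 2.41 with the scrambled oligonucleotide, 25.7% ± 4.92 in YAC128 aCSF and 19.5% ± 4.40 in WT aCSF libraries (SD, n = 8 each). WT replicate 1 stood apart from its group at 30.2%, with the other WT libraries at 19.2% or less. Markers of striatal projection neurons, astrocytes, oligodendrocytes, microglia and endothelium were present in each group, and cortical excitatory neuron markers summed to between 1195 and 4455 CPM over the libraries. In bulk tissue, fewer cells of a type and less RNA per cell cannot be told apart.

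With genotype, transcripts of glycolysis lay on the low side in YAC128 striatum by a small margin, and no single gene passed the test. In YAC128 aCSF against WT aCSF libraries, 16 of 17 tested glycolysis genes, 5 of 8 pyruvate genes and 11 of 14 TCA cycle genes had a log2 fold change below 0, against 50.7% of all genes. The median log2 fold change was -0.15 for glycolysis, -0.03 for the pyruvate genes and -0.07 for the TCA cycle, with -0.00 over all 10679 genes. The edgeR quasi-likelihood test, adjusted by Benjamini and Hochberg across all genes, called 0 of the 39 genes, where it called 0.0749% of all genes. At an unadjusted p under 0.05 there were 9, all lower in YAC128 (4 of glycolysis, 1 of pyruvate, 4 of the TCA cycle), where 12.5% of all genes had such a p and 5.76% had it and were lower. DESeq2 gave an adjusted p to 1155 genes in this comparison and left 20 of the 39 members without one, and it called 3 members, Ldhb, Eno2 and Idh3b, where it called 4.68% of those genes. The median standard error of a member's log2 fold change was 0.10, and a p that misses the threshold does not show equal levels. The direction of the group as a whole moved with the scaling and with the no-feature share. Scaled to total counts without TMM, which puts the median of all genes at 0.06, 22 of 39 were lower, and 21 of 39 were lower after adding the share to the fit (median -0.03 for glycolysis and -0.01 for the TCA cycle).

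**Figure D1:**
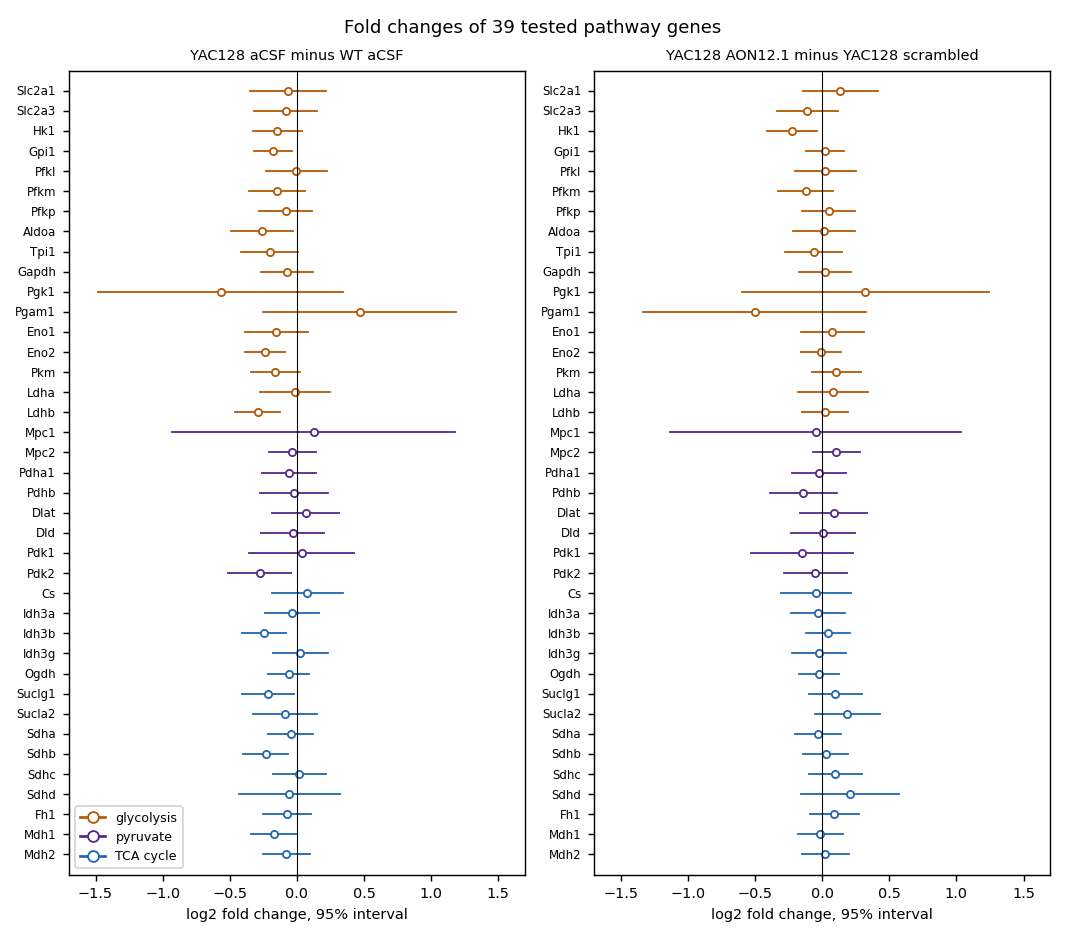
Log2 fold changes with 95% intervals (horizontal axis) of the 39 tested genes (rows, in pathway order), coloured by glycolysis, pyruvate or TCA cycle, for YAC128 aCSF minus WT aCSF (left) and for AON12.1 minus scrambled within YAC128 (right). Open points mark genes that were not called, which here is every gene: most points on the left lie below 0 while those on the right lie on both sides, and Pgk1, Pgam1 and Mpc1 have the widest intervals.

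Other cell type markers moved beside the genotype difference, and their part in it was not tested. Striatal projection neuron markers were lower for 17 of 18 genes (median log2 fold change -0.31), 2 of them called, and summed to between 4666 and 9494 CPM in YAC128 aCSF against 6967 to 14737 CPM in WT libraries. Astrocyte markers summed to between 3082 and 3408 CPM in YAC128 aCSF against 3411 to 4050 CPM in WT libraries, with 7 of 10 lower and 0 called by edgeR. Oligodendrocyte markers summed to 5076 to 6931 CPM in YAC128 aCSF against 6467 to 8661 CPM in WT libraries, with 7 of 10 lower. Choroid plexus markers reached a sum of 3968 CPM in 1 YAC128 aCSF library, against a group median of 187 CPM. No defining marker of these lists was at 0 in all 32 libraries.

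In the glucose transporters, Slc2a1 (GLUT1, of endothelium and astrocytes) and Slc2a3 (GLUT3, of neurons), no genotype difference passed the test. Slc2a3 stood at 76.8, 94.6 and 133 CPM (lowest, median and highest library) with AON12.1, at 87.8, 101 and 124 CPM with the scrambled oligonucleotide, at 59.8, 85.7 and 98.5 CPM in YAC128 aCSF and at 69.5, 89.0 and 106 CPM in WT aCSF. The scrambled libraries reached higher than the YAC128 aCSF libraries, and both ranges overlapped. Slc2a3 had the smallest p of all members for scrambled against aCSF (log2 fold change 0.31 ± 0.11, edgeR adjusted p = 0.346). For AON12.1 against aCSF it was 0.20 ± 0.11 (adjusted p = 0.497). Slc2a1 had 62.6, 88.4 and 115 CPM with AON12.1, 62.1, 79.9 and 98.5 CPM with scrambled, 47.2, 75.5 and 111 CPM in YAC128 aCSF and 58.3, 83.1 and 88.3 CPM in WT aCSF. For AON12.1 against aCSF the log2 fold change was 0.22 ± 0.14 (adjusted p = 0.555), and the YAC128 aCSF libraries were the most spread of the 4 groups.

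Among the hexokinases and the steps down to triose phosphate, Gpi1 was among the 6 members with the smallest genotype p. Gpi1 (ENSMUSG00000036427, chromosome 7), which turns glucose 6-phosphate into fructose 6-phosphate, stood at 564, 624 and 711 CPM with AON12.1, at 543, 623 and 724 CPM with scrambled, at 579, 619 and 652 CPM in YAC128 aCSF and at 640.1, 712 and 756 CPM in WT aCSF. The YAC128 aCSF and WT ranges met only between 640.1 and 652.1 CPM. On the log2 scale the change was -0.18 ± 0.07 with genotype (edgeR adjusted p = 0.296) and -0.16 ± 0.06 for all YAC128 against WT (adjusted p = 0.210).

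Hk1 (ENSMUSG00000037012, chromosome 10), the hexokinase of neurons that binds mitochondria, had 157, 216 and 255 CPM with AON12.1, 214, 239 and 332 CPM with scrambled, 182, 210.4 and 242 CPM in YAC128 aCSF and 207, 239.6 and 251 CPM in WT aCSF. Its median was highest in the scrambled and WT groups, and all groups overlapped. The log2 fold change was -0.22 ± 0.09 for AON12.1 against scrambled (edgeR adjusted p = 0.559) and 0.23 ± 0.09 for scrambled against aCSF (adjusted p = 0.383). Both contrasts share the scrambled group, in which replicate 5 at 332 CPM lay above the next library at 264 CPM, and without it the first was -0.16. Hk2, the hexokinase of muscle and of proliferating cells, was near the limit of detection, with 6.16 ± 3.31 CPM with AON12.1, 6.04 ± 2.80 with scrambled, 3.77 ± 2.75 in YAC128 aCSF and 4.10 ± 4.17 in WT aCSF (SD, n = 8 each), which is 0 to 10 counts per library.

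Phosphofructokinase, the committed step of glycolysis, is built from 3 kinds of subunit, and none of the 3 genes passed a test between groups. Pfkm, the muscle-type subunit, stood at 142, 189 and 228 CPM with AON12.1, at 176, 202 and 237 CPM with scrambled, at 156, 193 and 252 CPM in YAC128 aCSF and at 172, 217 and 254 CPM in WT aCSF. For AON12.1 against scrambled the log2 fold change was -0.12 ± 0.10 (edgeR adjusted p = 0.856). The log2 fold changes with genotype were -0.15 ± 0.10 for Pfkm, -0.09 ± 0.10 for the platelet-type Pfkp and -0.01 ± 0.11 for the liver-type Pfkl. A transcript of Pfkp shares a stretch with the annotated gene Pitrm1, which holds 13% of their combined counts. Whether any of the Pitrm1 counts came from Pfkp was not tested.

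Aldoa, which cleaves fructose 1,6-bisphosphate, had 2266, 2912 and 3767 CPM with AON12.1, 2291, 2939 and 3268 CPM with scrambled, 2109, 2413 and 3367 CPM in YAC128 aCSF and 2264, 2944 and 4178 CPM in WT aCSF. The YAC128 aCSF median was the lowest of the 4, and the ranges overlapped widely. Aldoa had a log2 fold change of -0.26 ± 0.11 with genotype (edgeR adjusted p = 0.341) and 0.16 ± 0.11 for scrambled against aCSF (adjusted p = 0.649). Tpi1 (ENSMUSG00000023456, chromosome 6), triose phosphate isomerase, stood at 210.0, 255 and 378 CPM with AON12.1, at 220.0, 275 and 297 CPM with scrambled, at 203, 278 and 348 CPM in YAC128 aCSF and at 277, 318 and 370.3 CPM in WT aCSF. Its highest value came from AON12.1 replicate 1, with the next AON12.1 library at 277 CPM. The log2 fold change was -0.25 ± 0.08 for all YAC128 against WT (adjusted p = 0.188) and -0.30 ± 0.10 for AON12.1 against WT (adjusted p = 0.172). The second of these passed without AON12.1 replicate 1 (-0.39, adjusted p = 0.0330) and among the animals numbered from 19 alone (-0.44, adjusted p = 0.0414).

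In the lower part of glycolysis, Eno2 had the smallest genotype p. Eno2 (ENSMUSG00000004267, chromosome 6), the neuronal enolase, stood at 655, 726 and 811 CPM with AON12.1, at 643, 731 and 803 CPM with scrambled, at 599, 701 and 766 CPM in YAC128 aCSF and at 674, 829.4 and 977 CPM in WT aCSF. The medians of all 3 YAC128 groups lay below the WT median, and the ranges overlapped. Eno2 had a log2 fold change of -0.24 ± 0.07 with genotype (fold 0.848, 95% interval 0.764 to 0.940, edgeR adjusted p = 0.179, DESeq2 adjusted p = 0.0199) and -0.20 ± 0.06 for all YAC128 against WT (edgeR adjusted p = 0.155). Between AON12.1 and scrambled it was -0.01 ± 0.07 (edgeR adjusted p = 0.995).

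Gapdh, glyceraldehyde 3-phosphate dehydrogenase, stood at 289, 438 and 501 CPM with AON12.1, at 366, 416 and 461 CPM with scrambled, at 364, 395 and 495 CPM in YAC128 aCSF and at 352, 435 and 507 CPM in WT aCSF. The 4 ranges lay over each other, and the log2 fold change with genotype was -0.08 ± 0.09 (edgeR adjusted p = 0.787). Its counts are uncertain, since 77 other annotated genes carry a stretch of at least 300 bases that is at least 95% identical to a Gapdh transcript, and they hold 42% of the combined counts. Eno1, the enolase of most tissues, had 54.2, 77.1 and 90.4 CPM with AON12.1, 59.1, 71.5 and 79.7 CPM with scrambled, 47.0, 67.1 and 83.7 CPM in YAC128 aCSF and 57.1, 75.9 and 90.7 CPM in WT aCSF. Its near-identical copy Eno1b took 92% of their combined counts, at 806 ± 84.3 CPM with AON12.1, 864 ± 144 CPM with scrambled, 736 ± 101 CPM in YAC128 aCSF and 907 ± 128 CPM in WT aCSF (SD, n = 8 each), so the level given for Eno1 alone is not that of the enzyme's transcripts.

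Pkm, pyruvate kinase, had 1269, 1736 and 1979 CPM with AON12.1, 1243, 1598 and 1662 CPM with scrambled, 1382, 1514 and 1770.1 CPM in YAC128 aCSF and 1341, 1708 and 2059 CPM in WT aCSF. The highest WT library exceeded every YAC128 library, while the lowest library of the 4 groups was a scrambled one. Pkm had a log2 fold change of -0.16 ± 0.09 with genotype (edgeR adjusted p = 0.457) and 0.10 ± 0.09 between AON12.1 and scrambled (adjusted p = 0.865).

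Pgk1, Pgam1 and, of the pyruvate carriers, Mpc1 varied far more between libraries of a group than the other members did, with coefficients of variation up to 104% for Pgk1, 85% for Pgam1 and 109% for Mpc1 within a group, against at most 36.1% for any other tested member. Their counts were low, at 853, 442 and 725 over the 32 libraries, with as few as 6, 4 and 7 in a library. Pgam1, phosphoglycerate mutase, had 4.21, 8.88 and 16.1 CPM with AON12.1, 5.26, 13.3 and 23.6 CPM with scrambled, 4.35, 10.2 and 43.9 CPM in YAC128 aCSF and 5.89, 15.5 and 19.7 CPM in WT aCSF. The 3 libraries above 25 CPM, between 31.1 and 43.9 CPM, were all of the YAC128 aCSF group. Pgam1 had the smallest p of the members for AON12.1 against aCSF (log2 fold change -1.12 ± 0.37, edgeR adjusted p = 0.202), and it was -0.62 ± 0.35 for scrambled against aCSF and -0.50 ± 0.40 for AON12.1 against scrambled. Without YAC128 aCSF replicate 2 the first of these was -0.83 (adjusted p = 0.516). Mpc1, a subunit of the mitochondrial pyruvate carrier, lay between 35.7 and 81.8 CPM in 8 libraries and between 6.90 and 17.8 CPM in the other 24. The 8 libraries were 2 of AON12.1, 2 of scrambled, 3 of YAC128 aCSF and 1 of WT aCSF, so the split ran across all groups.

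The lactate dehydrogenases gave the largest genotype difference in relation to its error among the members. Ldhb (ENSMUSG00000030246, chromosome 6), the heart-type subunit associated with lactate use, stood at 1137, 1317 and 1499 CPM with AON12.1, at 1201, 1298 and 1494 CPM with scrambled, at 1090.4, 1223 and 1380.4 CPM in YAC128 aCSF and at 1162, 1457 and 1853 CPM in WT aCSF. Every YAC128 aCSF library lay below the WT median, but the lowest WT library, replicate 1, lay below 6 of the 8. The log2 fold change with genotype was -0.29 ± 0.08 (fold 0.816, 95% interval 0.726 to 0.918, edgeR adjusted p = 0.150), and for all YAC128 against WT it was -0.22 ± 0.07 (adjusted p = 0.155). Without WT replicate 1 both passed, at -0.33 (adjusted p = 0.0312) and -0.26 (adjusted p = 0.0426), while without WT replicate 8 the genotype value was -0.24 (adjusted p = 0.328). After adding the share to the fit it was -0.16 (adjusted p = 0.713).

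Ldha (ENSMUSG00000063229, chromosome 7), the muscle-type subunit associated with lactate production, had a genotype value near 0, and the difference between the subunits was not tested. It stood at 407, 432 and 561 CPM with AON12.1, at 317, 452 and 492 CPM with scrambled, at 286, 367 and 631 CPM in YAC128 aCSF and at 267, 396 and 534 CPM in WT aCSF. The YAC128 aCSF group held both a library at 631 CPM and one at 286 CPM, and the 4 ranges overlapped. The log2 fold change was -0.01 ± 0.13 with genotype (95% interval -0.28 to 0.25, edgeR adjusted p = 0.982) and 0.20 ± 0.13 for AON12.1 against aCSF (adjusted p = 0.570).

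The start regions of the pair differ in sequence and are shown with that of Pkm, since Pkm and Ldha had the smallest adjusted p of the members for the no-feature share described further on and Ldhb the smallest genotype p. RefSeq (GRCm38.p6) gives 2 starts for Ldha on the plus strand, with windows chr7:46845554-46845853 and chr7:46846832-46847131, 1 for Ldhb on the minus strand, chr6:142507908-142508207, and 2 for Pkm on the plus strand, of which chr9:59656977-59657276 is shown. Each window holds 250 bases before and 50 bases after the start, written 5' to 3' along the transcript, and capitals mark ACGTG, the core of the hypoxia response element, or its reverse complement CACGT.
Ldha, upstream start: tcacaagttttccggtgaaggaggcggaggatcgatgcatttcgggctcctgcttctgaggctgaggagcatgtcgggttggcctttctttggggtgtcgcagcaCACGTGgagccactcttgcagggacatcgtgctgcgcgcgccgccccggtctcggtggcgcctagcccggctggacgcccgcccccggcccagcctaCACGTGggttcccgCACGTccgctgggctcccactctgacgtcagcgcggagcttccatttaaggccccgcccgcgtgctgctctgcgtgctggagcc
Ldha, downstream start: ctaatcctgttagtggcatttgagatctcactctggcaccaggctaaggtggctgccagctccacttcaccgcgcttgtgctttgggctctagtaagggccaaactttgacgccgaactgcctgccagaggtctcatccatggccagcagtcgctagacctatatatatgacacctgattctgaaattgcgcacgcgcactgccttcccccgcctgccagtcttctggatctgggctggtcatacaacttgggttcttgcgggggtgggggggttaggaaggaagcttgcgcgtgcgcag
Ldhb: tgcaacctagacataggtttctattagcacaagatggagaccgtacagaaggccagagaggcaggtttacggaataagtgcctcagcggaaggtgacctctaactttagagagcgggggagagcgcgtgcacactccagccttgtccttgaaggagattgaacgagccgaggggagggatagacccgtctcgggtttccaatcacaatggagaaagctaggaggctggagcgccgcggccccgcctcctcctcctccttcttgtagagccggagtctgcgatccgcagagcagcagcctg
Pkm, downstream start: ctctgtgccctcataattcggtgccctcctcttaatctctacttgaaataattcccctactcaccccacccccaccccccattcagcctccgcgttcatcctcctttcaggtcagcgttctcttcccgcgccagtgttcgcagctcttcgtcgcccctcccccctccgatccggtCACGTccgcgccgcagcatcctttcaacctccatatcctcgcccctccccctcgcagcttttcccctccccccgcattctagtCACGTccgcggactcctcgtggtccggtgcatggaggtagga
The core occurs 5 times in the upstream Ldha window, where each marked CACGTG counts as 2 matches, 1 on each strand. It occurs 0 times in the downstream Ldha window, 0 times for Ldhb, 2 times in the Pkm window shown and 0 times in the other Pkm window, chr9:59656326-59656625. No transcript of the GENCODE annotation used here begins at the upstream Ldha start, so its orientation was not checked and the 5 matches rest on the RefSeq entry alone. Start regions were found for 37 of the 40 genes, and at least 1 of a gene's windows held the core in 10 of 17 glycolysis genes, 2 of 8 pyruvate genes and 4 of 12 TCA cycle genes, against 21.8% of all genes and 19.6% of all windows of this length. Member windows were richer in G and C (median 61.0%) than all windows (52.7%), and CACGTG, an E-box, counts as a match on both strands. A match is a run of letters and not a measured binding site.

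The ratio of Ldhb to Ldha within a library did not overlap between AON12.1-treated YAC128 mice and WT mice, by a narrow margin. The log2 ratio averaged 1.55 ± 0.12 with AON12.1, 1.62 ± 0.28 with scrambled, 1.68 ± 0.32 in YAC128 aCSF and 1.92 ± 0.11 in WT aCSF (SD, n = 8 each). It ran from 1.36 to 1.78 in AON12.1 libraries and from 1.79 to 2.12 in WT libraries, whereas the scrambled (1.30 to 2.13) and YAC128 aCSF (1.078 to 2.13) ranges covered both. Among animals numbered from 18 it averaged 1.45 in 2 AON12.1 and 1.99 in 3 WT libraries, and among those numbered from 19 it averaged 1.59 in 6 AON12.1 and 1.89 in 5 WT libraries. The ratio is 1 of 8 isoenzyme ratios examined and is given as a description, with no test. The nearest libraries stood at 1.780 with AON12.1 and at 1.793 in WT. How many pairs of other genes fail to overlap between these groups was not counted. Taken singly, 0 tested members failed to overlap between AON12.1 and WT, and how many of all tested genes did was not counted.

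**Figure D2:**
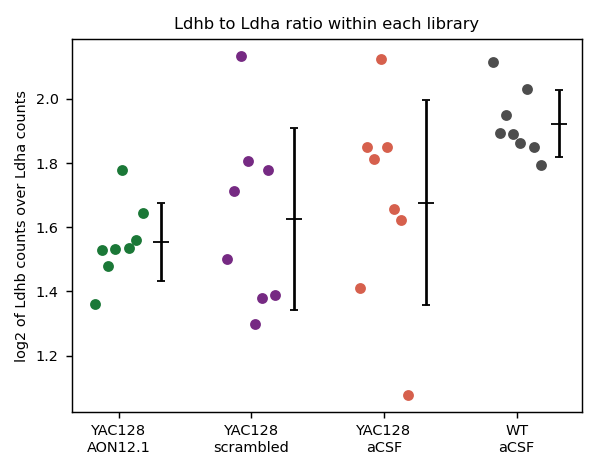
Log2 of the Ldhb counts over the Ldha counts in each of 32 libraries (points), by group, with the mean and SD to the right of each group. The 8 AON12.1 libraries lie between 1.36 and 1.78 and the 8 WT libraries between 1.79 and 2.12, while the scrambled and YAC128 aCSF groups spread across both ranges.

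The other isoenzyme ratios overlapped between all groups. The log2 ratio of Eno1 to Eno2 averaged -3.28 ± 0.24 with AON12.1, -3.35 ± 0.21 with scrambled, -3.38 ± 0.35 in YAC128 aCSF and -3.44 ± 0.26 in WT aCSF (SD, n = 8 each). That ratio used the counts of Eno1 without its near-identical copies, which hold 92% of the combined counts. It therefore does not give the balance of the enolases. The log2 ratio of Pdk2 to Pdk1 averaged 1.89 ± 0.50 with AON12.1, 1.84 ± 0.50 with scrambled, 1.89 ± 0.35 in YAC128 aCSF and 2.20 ± 0.46 in WT aCSF. For Slc2a1 over Slc2a3 the mean was highest with AON12.1 (-0.11 ± 0.23) and lowest with scrambled (-0.36 ± 0.19). The mean of Hk2 over Hk1 was highest with AON12.1 (-5.00 ± 0.56) and lowest in WT (-5.85 ± 1.11), that of Pfkl over Pfkm highest with AON12.1 (-0.999 ± 0.31) and lowest in WT (-1.28 ± 0.20). Pfkp over Pfkm was highest with AON12.1 (-0.39 ± 0.30) and lowest with scrambled (-0.57 ± 0.26), and Mdh1 over Mdh2 highest with scrambled (0.94 ± 0.18) and lowest in YAC128 aCSF (0.82 ± 0.17).

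At the pyruvate step, no member passed a test between groups, and the kinase Pdk2 was among the 6 members with the smallest genotype p. Pdk2 (ENSMUSG00000038967, chromosome 11), a kinase that switches the complex off, stood at 89.0, 106 and 147 CPM with AON12.1, at 98.0, 111 and 152 CPM with scrambled, at 92.4, 109 and 124 CPM in YAC128 aCSF and at 95.4, 140.1 and 163 CPM in WT aCSF. The WT median lay above the highest YAC128 aCSF library, and 3 WT libraries fell inside the YAC128 aCSF range. Its log2 fold change with genotype was -0.28 ± 0.11 (edgeR adjusted p = 0.324), and that of Pdk1, the kinase gene known as a target of hypoxia signalling, was 0.04 ± 0.19. Of the complex, Pdha1, Pdhb, Dlat and Dld had genotype log2 fold changes between -0.06 and 0.07, with 3 of 4 below 0. Mpc2, the other carrier subunit, had 276, 321 and 381 CPM with AON12.1, 250.1, 289 and 346 CPM with scrambled, 253, 324 and 350.1 CPM in YAC128 aCSF and 297, 320.3 and 346 CPM in WT aCSF. Its log2 fold change for AON12.1 against scrambled was 0.11 ± 0.08 (adjusted p = 0.850), with the ranges overlapping.

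From citrate to succinyl-CoA, the smallest genotype p belonged to Idh3b, the β subunit of NAD-dependent isocitrate dehydrogenase. Idh3b (ENSMUSG00000027406, chromosome 2) had 277, 336 and 377 CPM with AON12.1, 280.3, 323 and 362 CPM with scrambled, 285, 324 and 364 CPM in YAC128 aCSF and 328, 394 and 455 CPM in WT aCSF. The WT median exceeded every library of the 3 YAC128 groups, and 3 of the WT libraries fell inside their ranges. Idh3b had a log2 fold change of -0.25 ± 0.08 with genotype (fold 0.842, 95% interval 0.752 to 0.943, edgeR adjusted p = 0.199, DESeq2 adjusted p = 0.0383) and -0.24 ± 0.06 for all YAC128 against WT (edgeR adjusted p = 0.0998, DESeq2 adjusted p = 0.0249). After adding the share to the fit the genotype value was -0.26 (edgeR adjusted p = 0.581). The catalytic subunit Idh3a had a genotype log2 fold change of -0.04 ± 0.10 and Idh3g of 0.03 ± 0.10, and the difference between the subunits was not tested. Citrate synthase (Cs) was at 0.08 ± 0.13 and Ogdh, of the oxoglutarate dehydrogenase complex, at -0.06 ± 0.07.

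Sdhb (ENSMUSG00000009863, chromosome 4), the iron-sulphur subunit of succinate dehydrogenase, had 213, 258 and 286 CPM with AON12.1, 218, 247 and 305 CPM with scrambled, 219, 239 and 265 CPM in YAC128 aCSF and 256, 273 and 344 CPM in WT aCSF. The 2 aCSF groups overlapped only between 256 and 265 CPM. Its log2 fold change was -0.23 ± 0.08 with genotype (edgeR adjusted p = 0.235) and -0.18 ± 0.07 for all YAC128 against WT (adjusted p = 0.216). Sdhc, a membrane anchor of the same enzyme, stood at 149, 185 and 218 CPM with AON12.1, 156, 169.9 and 202 CPM with scrambled, 135, 159 and 178 CPM in YAC128 aCSF and 125, 148 and 190.0 CPM in WT aCSF. With AON12.1 against aCSF the log2 fold change was 0.23 ± 0.10 (adjusted p = 0.335), with overlapping ranges. Sdha, the flavoprotein subunit, had 203, 249 and 304 CPM with AON12.1, 235, 259 and 273 CPM with scrambled, 239.5, 279 and 301 CPM in YAC128 aCSF and 225, 281 and 325 CPM in WT aCSF, with a log2 fold change of -0.13 ± 0.08 for AON12.1 against aCSF (adjusted p = 0.570).

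**Figure D3:**
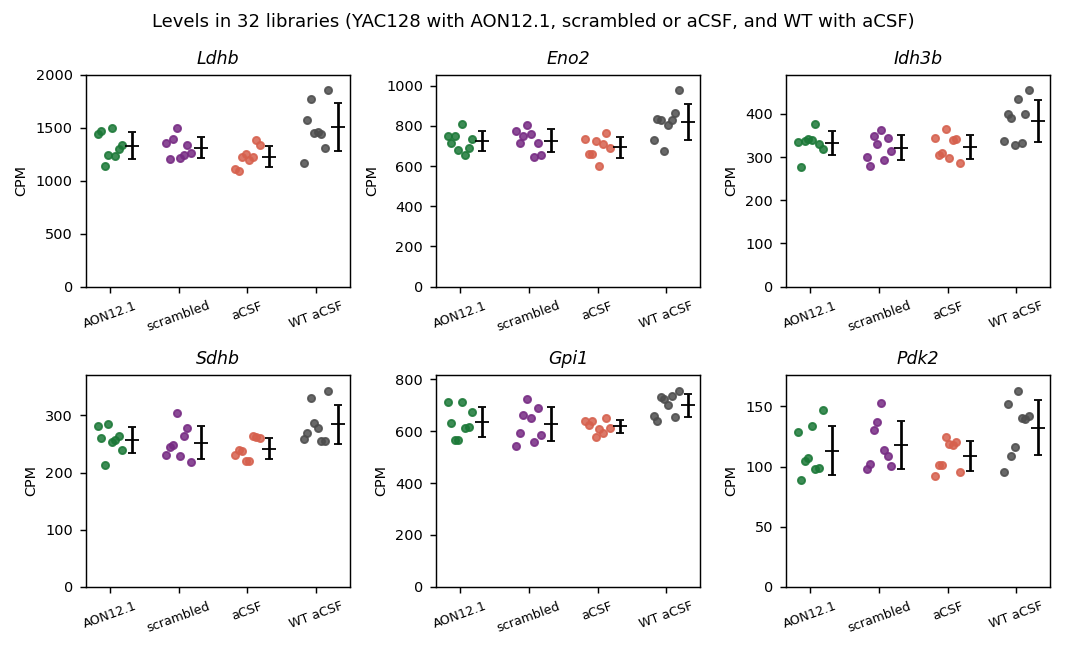
Levels in CPM (vertical axes, starting at 0) of Ldhb, Eno2, Idh3b, Sdhb, Gpi1 and Pdk2, the 6 genes with the smallest genotype p, in 32 libraries (points) by group, with the mean and SD beside each group. WT libraries reach highest in each panel, the 3 YAC128 groups lie close together, and the groups overlap throughout.

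Succinyl-CoA ligase is made with either an ATP- or a GDP-specific partner of Suclg1. Sucla2, the ATP-specific partner, stood at 82.5, 106 and 152 CPM with AON12.1, at 75.6, 91.1 and 137 CPM with scrambled, at 103, 108 and 152 CPM in YAC128 aCSF and at 105, 124 and 137 CPM in WT aCSF. The scrambled median lay below every library of both aCSF groups, although the highest scrambled library came close to the WT maximum. The log2 fold change was 0.19 ± 0.12 for AON12.1 against scrambled (edgeR adjusted p = 0.790), -0.26 ± 0.12 for scrambled against aCSF (adjusted p = 0.469) and -0.35 ± 0.12 for scrambled against WT (adjusted p = 0.274). Suclg1 had a genotype log2 fold change of -0.22 ± 0.09 (adjusted p = 0.341).

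Of the last steps, Fh1, fumarate hydratase, had 82.8, 91.9 and 101 CPM with AON12.1, 75.0, 86.1 and 95.7 CPM with scrambled, 82.2, 92.6 and 112 CPM in YAC128 aCSF and 88.3, 103 and 121 CPM in WT aCSF. For scrambled against aCSF the log2 fold change was -0.14 ± 0.09 (edgeR adjusted p = 0.602), and the ranges overlapped. The malate dehydrogenases, Mdh1 of the cytosol and Mdh2 of mitochondria, carry NADH equivalents between the compartments. Mdh1 (ENSMUSG00000020321, chromosome 11) stood at 718, 847 and 1005 CPM with AON12.1, at 783, 839 and 988 CPM with scrambled, at 631, 809 and 992 CPM in YAC128 aCSF and at 799, 907 and 980.4 CPM in WT aCSF. The 4 ranges of Mdh1 overlapped. Mdh2 stood at 354, 481 and 511 CPM with AON12.1, at 391, 449.7 and 513 CPM with scrambled, at 402, 445 and 512 CPM in YAC128 aCSF and at 394, 473 and 560.4 CPM in WT aCSF. The genotype log2 fold changes were -0.17 ± 0.08 for Mdh1 (adjusted p = 0.387) and -0.08 ± 0.08 for Mdh2 (adjusted p = 0.744).

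Treatment with AON12.1 was followed by no called change in any member. Against the scrambled oligonucleotide, edgeR called 0 of 39 members where it called 0.14% of all genes, DESeq2 also called 0 where it called 0.187% of all genes, and 1 member, Hk1, had an unadjusted p under 0.05 where 7.25% of all genes did. Of the members, 17 of 39 were lower with AON12.1, against 48.2% of all genes, with medians of 0.02 for glycolysis, -0.04 for pyruvate and 0.02 for the TCA cycle. For the 6 members with the smallest genotype p, the log2 fold changes of AON12.1 against scrambled lay between -0.05 for Pdk2 and 0.05 for Idh3b. Their 95% intervals were -0.15 to 0.19 for Ldhb, -0.16 to 0.14 for Eno2 and -0.12 to 0.21 for Idh3b.

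Against aCSF within YAC128, edgeR called 0 of 39 members with AON12.1, where it called 0.309% of all genes, and 0 of 39 with scrambled, where it called 0.0843%. DESeq2 called 0 in both, where it called 1.7% of the genes it adjusted with AON12.1 and 0.762% with scrambled, and it gave no adjusted p to 4 and 9 members. An unadjusted p under 0.05 was found for 2 members with AON12.1 (Pgam1 and Sdhc), where 11.6% of all genes had one, and for 3 with scrambled (Slc2a3, Hk1 and Sucla2), where 9.83% did. With AON12.1, 11 of 39 members were lower where 50% of all genes were (median 0.09 for glycolysis, 0.05 for the TCA cycle), and with scrambled 13 of 39 were lower where 50.4% of all genes were (median 0.07 for glycolysis, 0.06 for the TCA cycle). Both contrasts share the YAC128 aCSF libraries, whose mean no-feature share was the highest of the 4 groups. Markers of several cell types differed beside these contrasts, and their part in the values above was not tested. S100b (0.40) and Gfap (0.77) of astrocytes were called higher with AON12.1 against aCSF, and C1qa (0.62) and C1qb (0.58) of microglia with scrambled against aCSF, on the log2 scale. Striatal projection neuron markers had a log2 fold change above 0 for 18 of 18 genes with AON12.1 and 16 of 18 with scrambled, 0 of them called by edgeR, and summed to 10951 ± 2098 CPM with AON12.1, 8622 ± 1866 CPM with scrambled and 7748 ± 1664 CPM in YAC128 aCSF (SD, n = 8 each). Ttr of the choroid plexus had log2 fold changes of -3.38 (edgeR adjusted p = 0.0729) with AON12.1 and -4.12 (adjusted p = 0.0599) with scrambled. Choroid plexus markers summed to 3968 CPM in the highest YAC128 aCSF library. Their group medians lay close together, at 187 CPM in YAC128 aCSF, 181 CPM with AON12.1 and 183 CPM with scrambled. The medians differed between the animal number series, which hold few libraries of each group. For AON12.1 against aCSF the glycolysis median was 0.31 among animals numbered from 18, with 2 AON12.1 and 4 aCSF libraries. Those AON12.1 libraries had no-feature shares of 17.5% and 18.8%, and those aCSF libraries had shares of 27.5% to 31.1%. The TCA cycle median was -0.08 among animals numbered from 19, with 6 AON12.1 and 4 aCSF libraries. The part of the share in these medians was not tested.

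All YAC128 libraries together, set against WT, gave 27 of 39 members lower, where 50.1% of all genes were, with medians of -0.11 for glycolysis, -0.03 for pyruvate and -0.09 for the TCA cycle. edgeR called 0 of 39, where it called 0.234% of all genes, with 9 members at an unadjusted p under 0.05 where 13.5% of all genes had one, and DESeq2 called 3, again Ldhb, Eno2 and Idh3b, where it called 1.17% of the 6331 genes it adjusted. Each oligonucleotide group set against WT, which shares the WT libraries with the comparisons above, also gave 0 calls by edgeR and by DESeq2, which called 1.06% of the genes it adjusted for AON12.1 and 0.365% for scrambled. For AON12.1 against WT, 27 of 39 were lower, against 48.4% of all genes. There 6 members had an unadjusted p below 0.05, with 14.5% of all genes at such a p and 0.562% called. For scrambled against WT, 26 of 39 were lower, against 48.5% of all genes, and 10 had such a p, with 9.8% of all genes at it and 0.169% called. Idh3b was at -0.21 ± 0.08 with AON12.1 and at -0.25 ± 0.08 with scrambled, each relative to WT. Beside these values, Mobp of oligodendrocytes was called lower for all YAC128 (-0.51, adjusted p = 0.00848) and for AON12.1 (-0.61, adjusted p = 0.00783) against WT. S100b was called higher for AON12.1 (0.49) and for scrambled (0.41) against WT, and C1qa for scrambled (0.56). Other markers of these lists went the other way without being called by edgeR. Aldh1l1 of astrocytes was at -0.40 for scrambled against WT, and Trf of oligodendrocytes at 0.45 for AON12.1 against WT. Astrocyte markers summed to a mean of 3715 CPM with AON12.1 and 3722 CPM in WT aCSF. The part of these cell types was not tested.

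Members were called along the no-feature share of a library, with the groups in the fit. The share had an SD of 5.15 points over the 32 libraries, so a slope per 10 points is a change over more than 1 SD and is not set against the size of a group difference. In a fit with the groups and the share together, 35 of 39 members had a slope below 0, against 53.7% of all genes, and 10 were called, all lower at a higher share, where 14.6% of all genes were called and 5.08% were called lower. These were 8 of 17 tested glycolysis genes, 0 of 8 pyruvate genes and 2 of 14 TCA cycle genes. The median slope per 10 percentage points was -0.21 for glycolysis, -0.14 for pyruvate and -0.12 for the TCA cycle on the log2 scale, with -0.02 over all genes.

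Pkm fell by 0.27 ± 0.05 (edgeR adjusted p = 0.000308), Ldha by 0.38 ± 0.08 (adjusted p = 0.000447) and Gapdh by 0.27 ± 0.06 (adjusted p = 0.00160) per 10 points of share. The malate dehydrogenases fell together, Mdh1 by 0.24 ± 0.05 (adjusted p = 0.000732) and Mdh2 by 0.23 ± 0.06 (adjusted p = 0.00253). In the AON12.1 group, which spans the widest share, Pkm stood at 1979 CPM in the library at 17.5% and at 1338 and 1269 CPM in the libraries at 33.3% and 33.7%, and Mdh1 at 1005 CPM against 718 and 739 CPM in the same libraries. Ldhb fell by 0.21 ± 0.05 (adjusted p = 0.00766), Eno1 by 0.25 ± 0.08 (adjusted p = 0.0276), Tpi1 by 0.22 ± 0.07 (adjusted p = 0.0320) and Aldoa by 0.22 ± 0.08 (adjusted p = 0.0486). Eno1 summed with its copies, which hold most of their counts, was not called (-0.14, adjusted p = 0.203), while Gapdh summed with its copies was (-0.25, adjusted p = 0.00976).

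Pgk1, phosphoglycerate kinase, fell by 0.96 ± 0.33 (edgeR adjusted p = 0.0413). It stood at 5.91, 24.4 and 80.8 CPM with AON12.1, at 10.1, 24.9 and 39.2 CPM with scrambled, at 8.52, 15.7 and 83.5 CPM in YAC128 aCSF and at 11.8, 30.0 and 82.6 CPM in WT aCSF. Its slope was -0.52 and not called without YAC128 aCSF replicate 8, the library at 83.5 CPM. Idh3b and Eno2, among the members with the smallest genotype p, were not called along the share. Their slopes were 0.02 ± 0.06 (edgeR adjusted p = 0.889) and -0.08 ± 0.05 (adjusted p = 0.333).

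**Figure D4:**
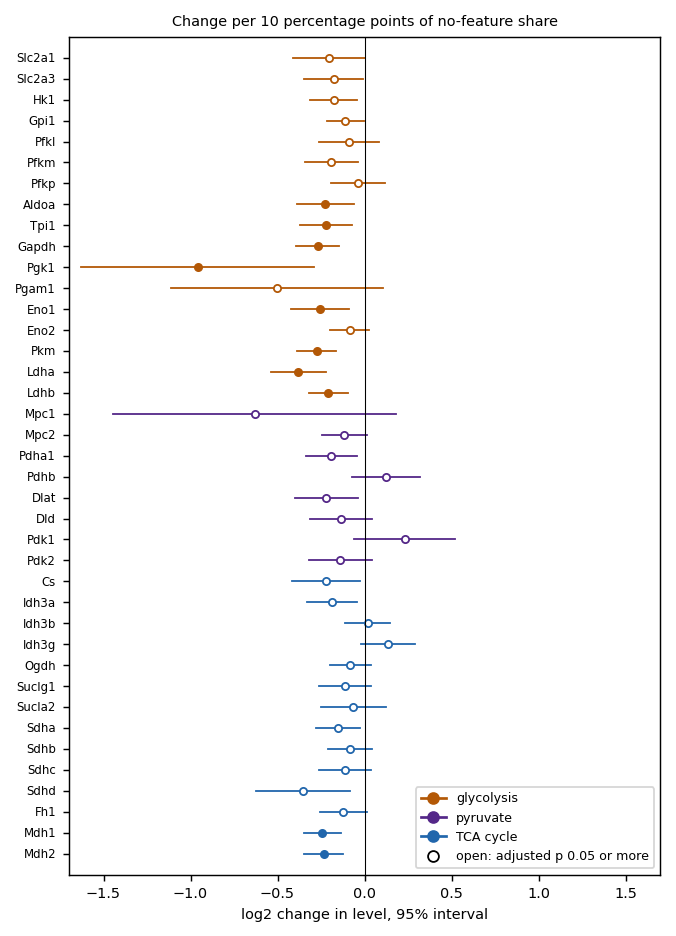
Log2 change in level per 10 percentage points of no-feature share with 95% intervals (horizontal axis) for the 39 tested genes (rows), from a fit that also holds the 4 groups. Filled points, the 10 genes with an adjusted p under 0.05, all lie below 0 and are 8 glycolysis genes with Mdh1 and Mdh2, while no pyruvate gene is filled.

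Leaving out 1 of the 32 libraries at a time left Pkm, Ldha, Mdh1, Mdh2 and Gapdh called in all 32 fits, Ldhb in 31, Eno1 in 27, Tpi1 in 26, Pgk1 in 19 and Aldoa in 8. The number of members called fell to 6 without WT replicate 1 and to 6 without YAC128 aCSF replicate 8. Calls over all genes also fell without WT replicate 1, to 1203 of 10773 genes, 348 of them lower. The fit with all libraries called 1555 of 10679 genes, 542 of them lower. Beside these slopes, 5 of 7 cortical excitatory neuron markers were lower at a higher share and 3 were called (Neurod2 at -2.02, Slc17a7 at -1.80, Tbr1 at -1.43 per 10 points), while 12 of 18 striatal projection neuron markers were lower and Pde10a was called higher (0.51). Of the microglial markers 9 of 10 were lower and 2 called, and of the astrocyte markers 7 of 10 were lower and 1 called. The part of tissue makeup, or of RNA quality, in these slopes was not tested.

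**Figure D5:**
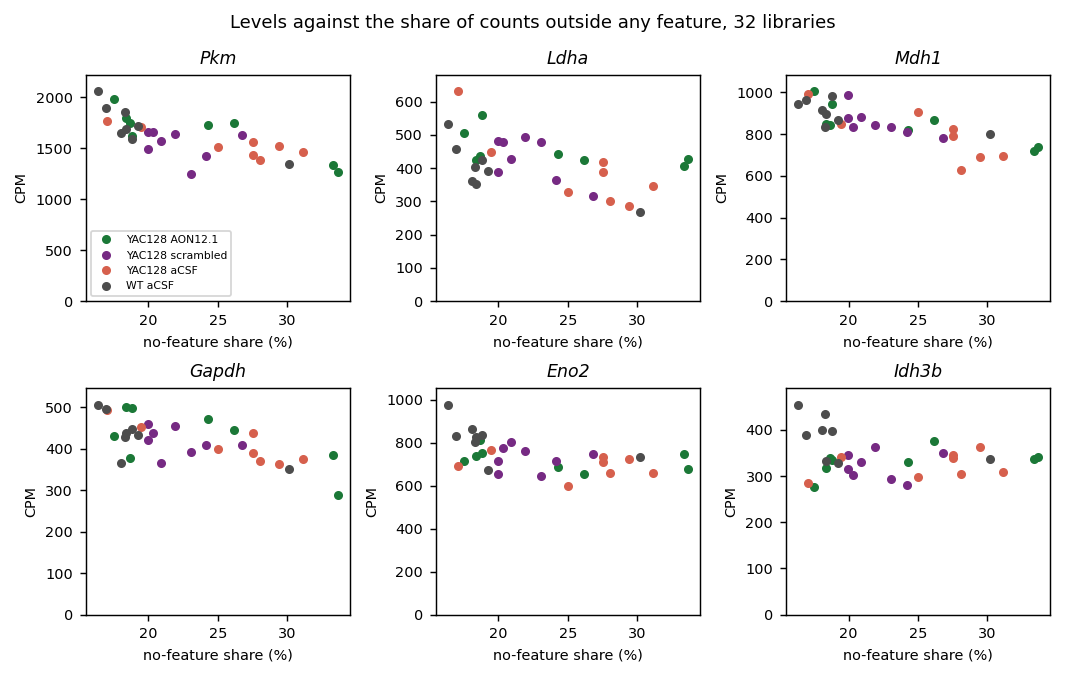
Levels in CPM (vertical axes, starting at 0) of Pkm, Ldha, Mdh1, Gapdh, Eno2 and Idh3b against the share of counts outside any feature in percent (horizontal axes), for 32 libraries coloured by group. The fitted slopes of Pkm, Ldha, Mdh1 and Gapdh are below 0 and called (-0.27, -0.38, -0.24 and -0.27 per 10 points), and those of Eno2 (-0.08) and Idh3b (0.02) are not.

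Neighbouring pathways were covered by lists of other enzymes, transporters and regulators. For genotype and for AON12.1 against scrambled, edgeR called none of their genes. Aldoc, the aldolase of astrocytes, was called for all YAC128 against WT. It averaged 714 ± 52.7 CPM with AON12.1, 757 ± 68.2 CPM with scrambled, 708 ± 86.3 CPM in YAC128 aCSF and 881 ± 71.5 CPM in WT aCSF (SD, n = 8 each). The AON12.1 libraries (654 to 774 CPM) lay below all WT libraries (791 to 968 CPM), and the other YAC128 groups overlapped WT. How many of all genes failed to overlap between AON12.1 and WT was not counted, and the YAC128 aCSF mean was no higher than that with AON12.1. Aldoc had a log2 fold change of -0.28 ± 0.06 for all YAC128 against WT (edgeR adjusted p = 0.0284), and with genotype it was -0.32 ± 0.08 (adjusted p = 0.09998). For AON12.1 against WT it was -0.30 ± 0.08 (adjusted p = 0.0514). In that last contrast Pgls, of the pentose phosphate pathway, was called lower (-0.45 ± 0.10, adjusted p = 0.0101), as was Pgm1, of glycogen metabolism (-0.51 ± 0.12, adjusted p = 0.0280), both named after their values were seen. Of all genes, edgeR called 0.234% for all YAC128 against WT and 0.562% for AON12.1 against WT.

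Of the pentose phosphate pathway, 5 of 6 tested genes were lower with genotype (median -0.20) and 3 had an unadjusted p under 0.05, with 0 called by edgeR. Over all genes, 50.7% were lower with genotype, 12.5% had such a p and 0.0749% were called, which also serves for the lists below. G6pdx, the entry enzyme of that pathway, was at -0.36 ± 0.13 and the transketolase Tkt at -0.27 ± 0.10 (adjusted p = 0.262 each). Other glycolysis genes were lower in 7 of 14, lactate transport genes in 3 of 5, other pyruvate genes in 6 of 11, other TCA cycle genes in 7 of 11, NADH shuttle genes in 6 of 10 and glycogen genes in 6 of 10 with genotype, with medians between -0.08 and 0.01. Among regulators, 10 of 15 were lower, and Arnt, the partner of HIF-1α, was highest in YAC128 aCSF at 18.995 ± 6.27 CPM, against 8.78 ± 5.03 CPM in WT aCSF (SD, n = 8 each, log2 fold change 1.04 ± 0.29, adjusted p = 0.150). Arnt was also called higher with the no-feature share (0.64 ± 0.19 per 10 points, adjusted p = 0.0174). With the share, 10 of 10 NADH shuttle genes were lower, where 53.7% of all genes were. Gpd1l (-0.43) and Got1 (-0.21) of these were called, as was Taldo1 (-0.22) of the pentose phosphate pathway. Along the share 14.6% of all genes were called. Called in the other direction, beside Arnt, were Slc2a12 of the other glycolysis genes (0.53, edgeR adjusted p = 0.0327) and the regulator Ppargc1b (0.39, adjusted p = 0.00575).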

How the data were processed

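Striatal RNA from 32 mice, 8 in each of 4 groups, was sequenced as 3'-end libraries. The values are whole-number counts per gene, deposited by the authors without normalization. Per the submitters' processing notes, FastQC, cutadapt 2.10, STAR 2.7.5a, HTSeq 0.12.4 and GRCm39 were used; collapsing of molecular identifiers and the strand setting are not given in the sources used here. Gene names came from a GRCm38 annotation and start regions from RefSeq GRCm38.p6.

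Libraries were grouped by their labels. Genes were kept with filterByExpr (minimum count 10, minimum total 15), scaled by TMM and fitted once over all 32 libraries with edgeR 4.0.16 (quasi-likelihood, R 4.3.3), tested on simulated data. Calls need a Benjamini-Hochberg adjusted p under 0.05 over all 10679 genes. Errors after ± are standard errors for log2 fold changes and SD for levels, and 95% intervals use 28 residual degrees of freedom. The no-feature share entered a second fit with the groups, per 10 percentage points. DESeq2 1.42.0, other scalings, filters, covariates and leaving out each library were the alternatives. Isoenzyme ratios were taken with 1 count added. Near-identical copies were found with blastn 2.17.0.

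Genes in the text are the 6 members with the smallest p in a comparison, called members, and those that a ratio or variability statement needs. The members and lists were chosen with earlier results of these data known. Depth was 658934 to 1419313 counts per library, which leaves genes such as Hk2 near the counting limit.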

Additional observations from a re-analysis of the deposited data

Results flagged for a closer look

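A library far from the other 7 of its group was found in 11 of 120 groups examined, where chance gives about 1 in 20. In YAC128 AON12.1, replicate 1 was high for Slc2a3 (133 CPM, nearest other 100.3) and Tpi1 (378 CPM, nearest other 277). In the scrambled group, replicate 5 was high for Hk1 (332 CPM, nearest other 264) and Pfkl (129 CPM, nearest other 94.3).

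In YAC128 aCSF, replicate 8 was high for Ldha (631 CPM, nearest other 448) and Pgk1 (83.5 CPM, nearest other 21.7), replicate 5 for Pfkm (252 CPM, nearest other 199) and replicate 7 for Sucla2 (152 CPM, nearest other 126). In WT aCSF, replicate 3 was low for Pdk1 (13.5 CPM, nearest other 26.4), replicate 8 was high for Pfkp (175 CPM, nearest other 144), and replicate 1 had a no-feature share of 30.2% (nearest other 19.2%).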

How the results depend on the processing

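Called members with genotype were 3 with DESeq2 and 0 to 1 when a library was left out, and for all YAC128 against WT 3 and 0 to 1. For AON12.1 against WT they were 1 among animals numbered from 19 and 0 to 1 when a library was left out. With the no-feature share they were 6 without TMM and 6 to 12 when a library was left out. Without WT replicate 1, which gave 6, 1203 of 10773 genes were called. Animals numbered from 18 gave 2 AON12.1, 2 scrambled, 4 YAC128 aCSF and 3 WT libraries. Those numbered from 19 gave 6 AON12.1, 6 scrambled, 4 YAC128 aCSF and 5 WT libraries. Among animals numbered from 18, the median log2 fold change of glycolysis was 0.19 for AON12.1 against scrambled and 0.31 against aCSF, that of the TCA cycle 0.18 against aCSF and 0.023 against WT, and that of pyruvate 0.092 against WT. Among those numbered from 19, the TCA cycle was at -0.076 for AON12.1 against aCSF, and glycolysis at -0.035 and the TCA cycle at -0.025 for scrambled against aCSF. Without libraries above a 25% share, these last were -0.044 and -0.031. With the share as covariate, the TCA cycle was at -0.0010 for scrambled against aCSF and -0.015 against WT. Pfkm for AON12.1 against scrambled turned to 0.082 and Fh1 for scrambled against aCSF to 0.010 among animals numbered from 18. Slc2a1 and Ldha for AON12.1 against aCSF turned to -0.048 and -0.074 among those numbered from 19, and Aldoa for scrambled against aCSF to -3.51e-05 without libraries above a 25% share. The cause was not tested. Over all genes, genotype calls were 8 with edgeR, 54 with DESeq2 and 142 without WT replicate 1. Summing Eno1 and Gapdh with their copies was chosen after seeing the data and gave 9 called members with the share, Eno1 no longer among them. No paired analysis was possible because the labels give no replicate numbers that groups share.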
